A study of Mus musculus with 4 samples.

Results

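The clustered protocadherins are cadherin-type adhesion proteins encoded by the alpha, beta and gamma gene clusters, which lie side by side on mouse chromosome 18. Rows were taken as members when their GENCODE M21 symbol starts with Pcdha, Pcdhb or Pcdhg and the row is not a pseudogene. This gave 57 of 55421 rows, with 14 in the alpha, 22 in the beta and 21 in the gamma cluster, after 1 pseudogene, Pcdhgb8, was left out of 58 matching rows. Members were described in their order along each cluster. In mm10 coordinates the alpha members span 36930184 to 37187661, the beta members 37264938 to 37524479 and the gamma members 37661793 to 37841873. GENCODE M21 gives the symbol Pcdha11 to 2 identifiers. ENSMUSG00000007440, which RefSeq on the same assembly calls Pcdha10 and which lies before the other, is called Pcdha10 here, and ENSMUSG00000102206 is called Pcdha11.

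Each variable exon of the alpha and gamma clusters has its own promoter and encodes the whole extracellular part, the membrane span and a short cytoplasmic stretch, which is spliced to constant exons shared by the cluster. Beta members have no constant exons and are single-exon coding genes. The proteins bind the same isoform on a neighbouring cell, and in mouse neurons most isoforms are chosen at random per cell, through CTCF and cohesin contacts between promoters and distant enhancers, while the C-type isoforms are chosen in other ways. In mouse, gamma protocadherins of astrocytes and neurons are known to take part in contacts between astrocytes and synapses.

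RNA of 4 samples of C57BL/6J astrocytes was sequenced, 2 carrying an shRNA against Phf8 and 2 carrying a control shRNA, both delivered by lentivirus. Phf8 encodes a histone lysine demethylase. All cells had been differentiated from neural stem cells in serum-containing medium, so every library shares lentiviral infection and serum. The labels call the samples biological replicates but do not say whether they came from separate cultures or animals. The p-values therefore set the difference between the groups only against the spread among these samples, and that spread may be technical. No source used here gives the number of hairpins, the time after infection or any selection.

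Libraries held 44724759 and 36839530 counted reads with Phf8 shRNA, and 42245602 and 40472627 with control shRNA. Levels are in CPM, reads per 1000000 reads of the library after TMM scaling. Phf8 itself stood at 44.3 and 42.3 CPM (1915 and 1551 reads) in the Phf8 shRNA libraries, against 53.3 and 53.0 CPM (2304 and 2170 reads) in the control libraries. It was lower in both Phf8 shRNA libraries (log2 fold change -0.30 ± 0.06 (SE), edgeR adjusted p = 1.72e-06), and it decreased by 18.5%. Of 12 astrocyte markers, 8 fell, 3 rose and 1 did not pass, with a summed level of 7438 and 6690 CPM with Phf8 shRNA against 10143 and 9872 CPM with control shRNA. All 12 had reads in every library. Gfap, Aqp4 and Aldoc fell (log2 fold changes -1.76, -1.33 and -0.88), while the glutamate transporter gene Slc1a2, Glul and Gja1 rose (2.85, 1.15 and 0.35). Of 10 neuron markers tested 9 rose and none fell, with summed levels of 1942 and 1937 CPM with Phf8 shRNA, against 1186 and 1225 CPM with control shRNA. Gad1, Syt1, Dcx and Map2 rose by log2 fold changes of 1.31, 1.22, 0.91 and 0.59, and Rbfox3 did not pass (0.15). Slc17a6 and Slc17a7, which mark glutamatergic neurons, were at or near 0 in every library. Gad2 and Stmn2 had few reads too and were not tested. Gad2 had 9 and 9 reads with Phf8 shRNA against 4 and 6 with control shRNA, and Stmn2 had 12 and 5 against 7 and 8. Of 12 oligodendrocyte lineage markers 11 rose and none fell, with summed levels of 1323 and 1276 CPM against 798 and 751 CPM in controls. Over all genes tested, 24.8% were called higher and 27.3% lower at an edgeR adjusted p under 0.05. Of 4 microglia markers tested 1 fell (list sums 6.04 and 6.18 CPM with Phf8 shRNA, 8.46 and 8.90 with control shRNA). Of 8 endothelial or mural markers tested 4 fell and 1 rose (26.3 and 26.6 CPM with Phf8 shRNA, 28.1 and 28.04 with control shRNA). Pdgfrb rose, with 23.8 and 24.0 CPM with Phf8 shRNA, against 9.55 and 9.53 CPM with control shRNA (log2 fold change 1.33), while Acta2, Kdr, Rgs5 and Kcnj8 fell (-4.36, -3.27, -2.37 and -4.89). C1qa, C1qb and Cdh5 had 0 reads in every library. The part of these shifts in the changes of the protocadherins was not tested, and in bulk RNA fewer cells of a type and less RNA per cell cannot be told apart.

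Of the 57 members, 55 had enough reads to be tested, and 45 to 19751 reads were counted for each of them over the 4 libraries. Called at a Benjamini-Hochberg adjusted p under 0.05 over 21042 genes (edgeR, quasi-likelihood), 23 members rose, 6 fell and 26 did not pass. The call rate of 52.7% was close to the background, since 52.1% of all genes tested were called (24.8% higher and 27.3% lower). The balance leaned to higher levels, with a median log2 fold change of 0.20 over the members and 0.01 over all genes. It moved with the scaling of the libraries: 17 rose and 9 fell when scaled by library size alone, and 27 rose and 3 fell with upper-quartile scaling, where the calls over all genes were 6640 higher and 4811 lower, against 5225 and 5740 in the main test. Sizes were small, with a median absolute log2 fold change of 0.21 over the members (median standard error 0.09) and 0.32 over all genes. A change of 1.5-fold or more, whatever its p, was seen for 5 members, Pcdha1, Pcdha2, Pcdha3, Pcdha12 and Pcdhga11, while 29.3% of all genes reached that size. The groups did not overlap for 41 of the 55 members, 31 higher and 10 lower with Phf8 shRNA, which is 74.5% of them, against 73.9% of all genes tested. Without Phf8 shRNA replicate 2, 11 members rose and 8 fell, DESeq2 called 10 higher and 5 lower, and a test with the biological coefficient of variation set to 0.2 called 1 higher and 0 lower.

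**Figure D1:**
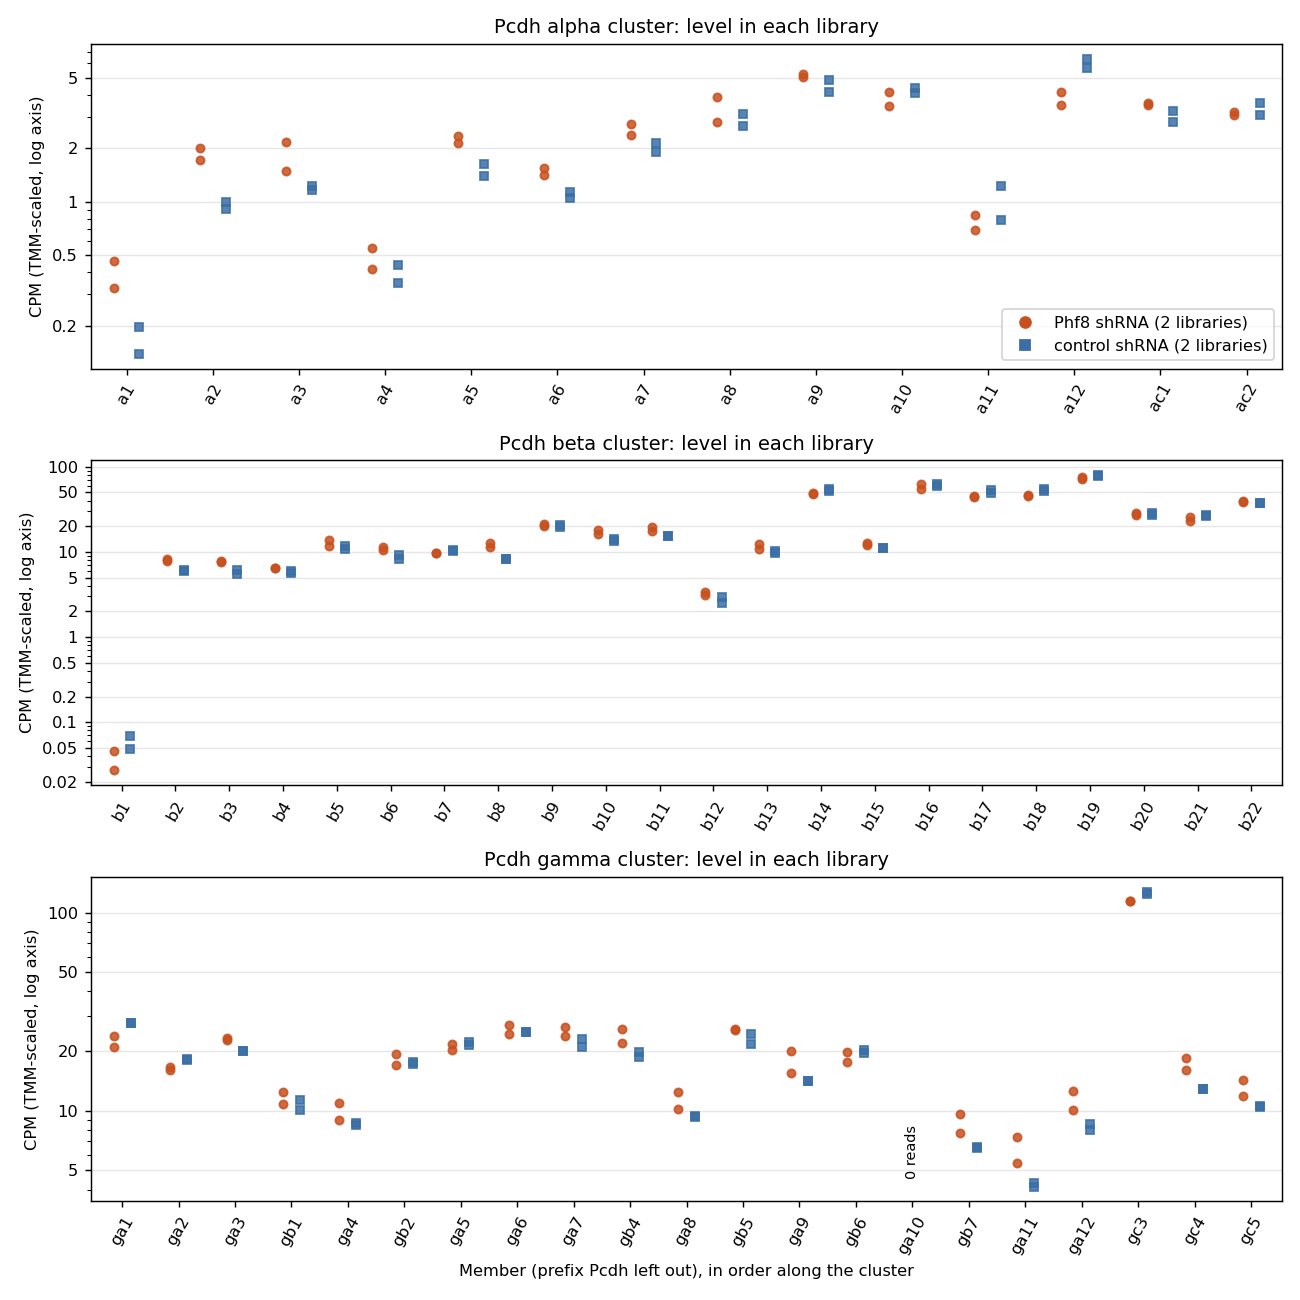
Level of each member, in TMM-scaled CPM, in the 4 libraries, on a log axis, in order along the alpha (top), beta (middle) and gamma (bottom) clusters; orange circles are the 2 Phf8 shRNA libraries and blue squares the 2 control shRNA libraries. Pcdhgc3 stands above the other gamma members, Pcdhb1 lies near 0 and Pcdhga10 has 0 reads in every library.

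Summed over a cluster, the levels differed between the groups by less than the spread of the Phf8 shRNA pair. All members together made up 991 ± 52.2 CPM with Phf8 shRNA and 977 ± 6.95 CPM with control shRNA (SD, n = 2 each), a ratio of 1.01. The alpha sum was 34.5 ± 3.24 CPM with Phf8 shRNA and 32.3 ± 0.502 CPM with control shRNA. The beta sum was 514 ± 20.4 CPM with Phf8 shRNA and 519 ± 8.96 CPM with control shRNA, and the gamma sum was 442 ± 28.5 CPM with Phf8 shRNA and 425 ± 2.51 CPM with control shRNA. These sums were not tested, since 2 samples per group cannot bring an exact two-sided permutation test below 0.333. The summed gamma B members had a ratio of 1.10, with 101 and 113 CPM in the Phf8 shRNA libraries against 95.8 and 98.0 CPM in the control libraries.

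**Figure D2:**
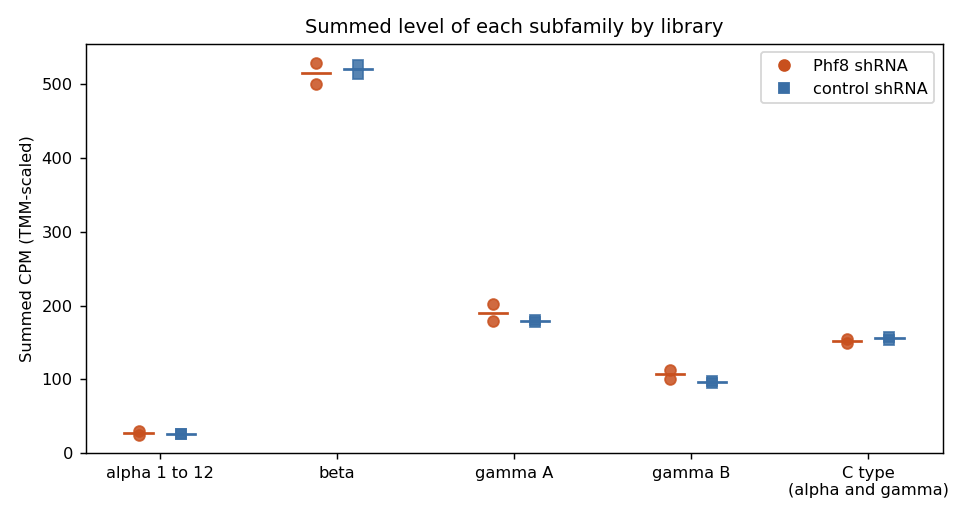
Summed CPM of alpha members 1 to 12, beta, gamma A, gamma B and C-type members in each library; orange circles are Phf8 shRNA, blue squares control shRNA, and bars the mean of 2. Of the 5 sums shown, only that of gamma B does not overlap between the groups.

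The 2 Phf8 shRNA libraries differed from each other in the members. Replicate 2 was above replicate 1 for 50 of 55 members with Phf8 shRNA, while with control shRNA replicate 2 was above replicate 1 for 32 of 55. The reads were also compared by chi-square, with expected shares set by library totals without TMM scaling, where 1 is counting noise. The comparison gave 5.91 per member between the Phf8 shRNA libraries and 1.19 between the control libraries. Over all genes the corresponding values were 3.09 and 3.42. All members together had 922 and 1024 reads per 1000000 with Phf8 shRNA before TMM scaling, and 954 and 1028 CPM after it. With control shRNA they had 995 and 992 before it, and 972 and 982 CPM after it. Part of the 5.91 therefore comes from leaving this scaling out. Without Phf8 shRNA replicate 1 the median log2 fold changes of the alpha, beta and gamma members were 0.44, 0.175 and 0.24 (all genes 0.01). Without Phf8 shRNA replicate 2 they were 0.20, 0.07 and 0.13 (all genes 0.0001). Without control replicate 1 they were 0.22, 0.09 and 0.21 (all genes 0.006). Without control replicate 2 they were 0.33, 0.16 and 0.20 (all genes 0.02). No called member changed direction in any of these fits.

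In the alpha cluster 4 of 14 members rose, 1 fell and 9 did not pass, a share of 35.7% called against 52.1% of all genes. Pcdha1, Pcdha2, Pcdha3 and Pcdha5, near the start of the cluster, rose, and Pcdha12, the last numbered isoform, fell. Alpha isoforms share a constant cytoplasmic region that is known to bind focal adhesion kinases and FYN. The whole cluster gave 1391 and 1349 reads in the Phf8 shRNA libraries and 1381 and 1335 reads in the control libraries, so each isoform rests on few reads. Pcdha2, the second isoform, stood at 1.71 and 2.02 CPM (74 and 74 reads) in the Phf8 shRNA libraries, against 0.994 and 0.904 CPM (43 and 37 reads) in the control libraries. Both Phf8 shRNA libraries lay above both control libraries (log2 fold change 0.96 ± 0.23 (SE), edgeR adjusted p = 7.34e-05). Pcdha3 had 1.48 and 2.18 CPM (64 and 80 reads) in the Phf8 shRNA libraries, against 1.16 and 1.22 CPM (50 and 50 reads) in the control libraries. Pcdha5 had 2.13 and 2.34 CPM (92 and 86 reads) in the Phf8 shRNA libraries, against 1.39 and 1.64 CPM (60 and 67 reads) in the control libraries. The groups did not overlap for either isoform, with log2 fold changes of 0.61 ± 0.22 for Pcdha3 and 0.56 ± 0.20 for Pcdha5 (SE; edgeR adjusted p = 0.0121 and 0.00979). Pcdha1, the first isoform, was counted with 14 and 17 reads in the Phf8 shRNA libraries and 6 and 8 reads in the control libraries, at 0.324 and 0.463 CPM with Phf8 shRNA against 0.139 and 0.196 CPM with control shRNA. It passed the filter on low counts (0.242 CPM) through the Phf8 shRNA libraries alone, so it had to differ to be tested (log2 fold change 1.21 ± 0.47 (SE), edgeR adjusted p = 0.0219), and its summed reads gave a ratio of 2.33 with a 95% counting interval of 1.20 to 4.74. Pcdha12 stood at 3.52 and 4.14 CPM (152 and 152 reads) in the Phf8 shRNA libraries, against 6.38 and 5.65 CPM (276 and 231 reads) in the control libraries. It was lower in both Phf8 shRNA libraries (log2 fold change -0.66 ± 0.13 (SE), edgeR adjusted p = 9.01e-07), and its share of the cluster's reads was 11.1% with Phf8 shRNA against 18.6% with control shRNA. Pcdha1 lost its call without Phf8 shRNA replicate 2 (edgeR adjusted p = 0.267), control replicate 1 (0.231) or control replicate 2 (0.0747), and Pcdha3 lost it without the same libraries (0.327, 0.1 and 0.0505). Pcdha5 lost it without Phf8 shRNA replicate 2 (edgeR adjusted p = 0.0502) or control replicate 1 (0.16), so that 1 member rose without Phf8 shRNA replicate 2, 1 without control replicate 1 and 2 without control replicate 2.

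Pcdha4, Pcdha6, Pcdha7, Pcdha8 and Pcdha9 had log2 fold changes of 0.28, 0.43, 0.33, 0.20 and 0.20, and none passed. Pcdha10 and Pcdha11 had values of -0.15 ± 0.14 and -0.39 ± 0.28 (SE) and did not pass either. Over the 12 numbered isoforms the log2 fold change was lower the later the isoform stood, with Pearson's r -0.945 and Spearman's rho -0.951. The first and highest point, Pcdha1, could enter only by being high with Phf8 shRNA. These points share the same 4 libraries and the isoforms with few reads lie mostly at the start, since position and log CPM were themselves correlated (r 0.672) and CPM and fold change had r -0.551. Among the 9 isoforms with a mean of at least 1 CPM, which leaves out Pcdha1, Pcdha4 and Pcdha11, r was -0.955 and rho -1, and over the 12 isoforms with 1 library left out r lay between -0.958 and -0.899. The 2 C-type isoforms after them did not continue the fall. Pcdhac1 had 3.58 and 3.51 CPM (155 and 129 reads) in the Phf8 shRNA libraries, against 2.80 and 3.23 CPM (121 and 132 reads) in the control libraries. The groups did not overlap (log2 fold change 0.24 ± 0.15 (SE), edgeR adjusted p = 0.182). Pcdhac2, which in mouse is needed for the spacing of serotonergic axons, had 3.21 and 3.08 CPM (139 and 113 reads) in the Phf8 shRNA libraries, against 3.07 and 3.59 CPM (133 and 147 reads) in the control libraries. Its groups overlapped (log2 fold change -0.08 ± 0.15 (SE), edgeR adjusted p = 0.696).

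**Figure D3:**
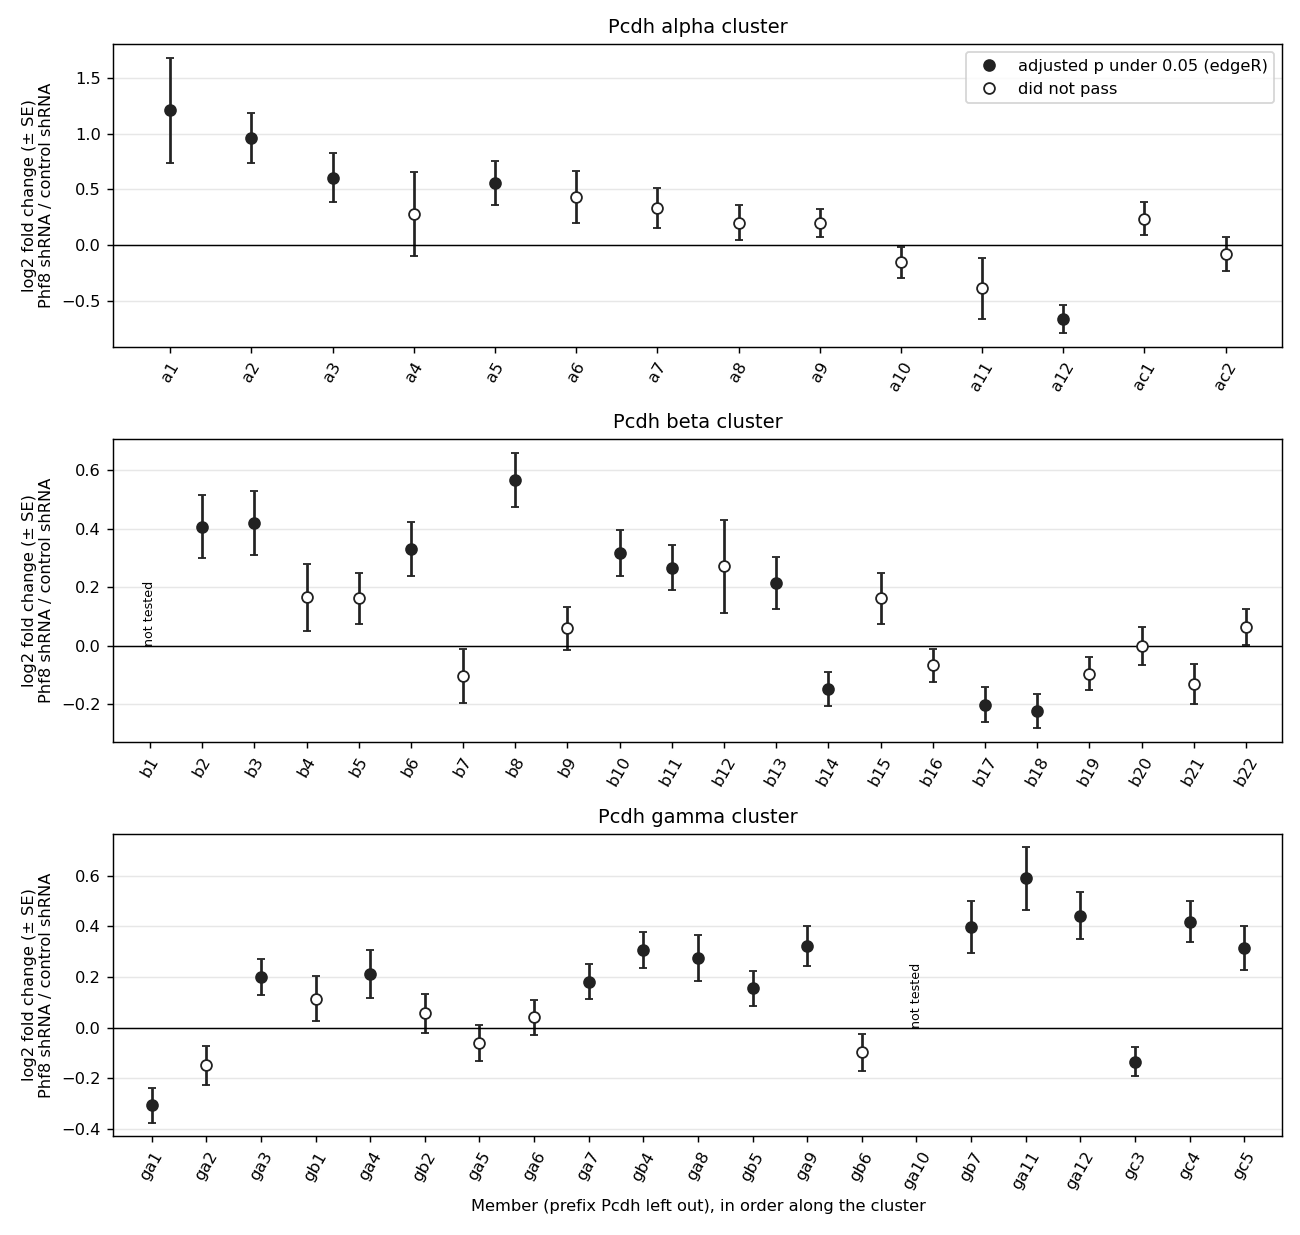
Log2 fold change of each member, Phf8 shRNA over control shRNA, with its standard error, in order along the 3 clusters; filled points passed an adjusted p under 0.05 in edgeR and open points did not, and the vertical scale differs between panels. Alpha values are highest at the start of the cluster (Pcdha2, 0.96; Pcdha1, 1.21, which passed the filter through the Phf8 shRNA libraries alone) and lowest at Pcdha12 (-0.66), with Pcdha4 (0.28) below its neighbours, and the 7 beta members that rose all lie before Pcdhb14.

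In the beta cluster 7 of the 21 members tested rose, 3 fell and 11 did not pass, and no change reached 1.5-fold. That is 47.6% called, against 52.1% of all genes. The members that rose were Pcdhb2, Pcdhb3, Pcdhb6, Pcdhb8, Pcdhb10, Pcdhb11 and Pcdhb13, all in the first part of the cluster, and those that fell were Pcdhb14, Pcdhb17 and Pcdhb18, all in the last part. Beta isoforms lack the shared cytoplasmic region of the alpha and gamma isoforms and join them in mixed adhesion complexes on the cell surface. Pcdhb8 had the largest change of the cluster, with 11.6 and 12.7 CPM (500 and 468 reads) in the Phf8 shRNA libraries, against 8.16 and 8.21 CPM (353 and 336 reads) in the control libraries. The control libraries lay close together and both Phf8 shRNA libraries stood above them (log2 fold change 0.57 ± 0.09 (SE), edgeR adjusted p = 4.04e-09). Pcdhb10 had 16.3 and 18.03 CPM (703 and 662 reads) in the Phf8 shRNA libraries, against 13.5 and 14.03 CPM (582 and 574 reads) in the control libraries. Pcdhb3 had 7.63 and 7.87 CPM (330 and 289 reads) in the Phf8 shRNA libraries, against 5.43 and 6.16 CPM (235 and 252 reads) in the control libraries. Neither overlapped between the groups, with log2 fold changes of 0.32 ± 0.08 for Pcdhb10 and 0.42 ± 0.11 for Pcdhb3 (SE; edgeR adjusted p = 0.000221 and 0.000354). For Pcdhb2, Pcdhb6, Pcdhb11 and Pcdhb13 the log2 fold changes were 0.41, 0.33, 0.27 and 0.21. Pcdhb6 lost its call without control replicate 2 (edgeR adjusted p = 0.0683), and Pcdhb13 without Phf8 shRNA replicate 2 (0.348), control replicate 1 (0.253) or control replicate 2 (0.056). Without Phf8 shRNA replicate 2 the beta members that fell numbered 5, since Pcdhb16, Pcdhb19 and Pcdhb21 passed and Pcdhb14 did not.

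Of the decreases Pcdhb18 had the smallest adjusted p, with 45.2 and 46.3 CPM (1954 and 1699 reads) in the Phf8 shRNA libraries, against 51.7 and 55.0 CPM (2235 and 2250 reads) in the control libraries. Pcdhb17 had 44.4 and 45.0 CPM (1922 and 1652 reads) in the Phf8 shRNA libraries, against 49.4 and 53.4 CPM (2135 and 2186 reads) in the control libraries. Pcdhb14 had 49.0 and 48.3 CPM (2120 and 1772 reads) in the Phf8 shRNA libraries, against 55.3 and 52.3 CPM (2394 and 2141 reads) in the control libraries. All 3 lay below the controls in both Phf8 shRNA libraries, by log2 fold changes of -0.22 ± 0.06 for Pcdhb18, -0.20 ± 0.06 for Pcdhb17 and -0.15 ± 0.06 for Pcdhb14 (SE; edgeR adjusted p = 0.000412, 0.00166 and 0.024). Pcdhb17 lost its call without control replicate 2 (edgeR adjusted p = 0.112), and Pcdhb14 without Phf8 shRNA replicate 2 (0.0899) or control replicate 1 (0.199). The member with the most reads, Pcdhb19, had 71.0 and 76.0 CPM (3070 and 2791 reads) in the Phf8 shRNA libraries, against 77.6 and 79.5 CPM (3356 and 3251 reads) in the control libraries. It did not pass (log2 fold change -0.10 ± 0.06 (SE), edgeR adjusted p = 0.144). Per kilobase of exon covered by no other gene, the highest beta levels were those of Pcdhb16 (11.4 CPM per kb), Pcdhb19 (10.6), Pcdhb17 (10.3) and Pcdhb18 (9.83), all in the last part of the cluster. The remaining members that did not pass had log2 fold changes between -0.13 (Pcdhb21) and 0.27 (Pcdhb12), and Pcdhb20 stood at 28.0 CPM in both groups' means. Pcdhb1, the first member, had 2 and 1 reads with Phf8 shRNA against 3 and 2 reads with control shRNA and was not tested. Its ratio of 0.632 has a 95% counting interval of 0.0981 to 3.25.

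Over the 21 beta members tested the fold change was lower later in the cluster (r -0.661, rho -0.665), and lower at higher levels in log CPM (r -0.739, rho -0.740). Position and level were correlated (r 0.725), and the points share the same 4 libraries, so the order and the level cannot be told apart here. The parts before and after Pcdhb14 were chosen after their values were seen: Pcdhb1 to Pcdhb13 summed to 134 and 144 CPM with Phf8 shRNA against 118 and 119 CPM with control shRNA, and Pcdhb14 to Pcdhb22 to 366 and 384 CPM with Phf8 shRNA against 396 and 407 CPM with control shRNA.

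In the gamma cluster 12 of the 20 members tested rose, 2 fell and 6 did not pass, a share of 70.0% called, but without Phf8 shRNA replicate 2 only 4 rose. Without Phf8 shRNA replicate 1, control replicate 1 or control replicate 2, 1 gamma member fell in place of 2. Of all genes tested in the main test, 52.1% were called. The gamma members that rose lay mostly in the second part of the cluster and included Pcdhgc4 and Pcdhgc5 at its end. Those that fell were Pcdhga1, the first member, and Pcdhgc3. Gamma isoforms of the A and B types are interspersed along the cluster and all end in the same constant region. Of the A type, Pcdhga11 had the largest change, with 5.43 and 7.36 CPM (235 and 270 reads) in the Phf8 shRNA libraries, against 4.30 and 4.13 CPM (186 and 169 reads) in the control libraries. Pcdhga12 had 10.1 and 12.6 CPM (436 and 463 reads) in the Phf8 shRNA libraries, against 8.58 and 8.02 CPM (371 and 328 reads) in the control libraries. Pcdhga9 had 15.6 and 19.9 CPM (674 and 732 reads) in the Phf8 shRNA libraries, against 14.1 and 14.2 CPM (608 and 581 reads) in the control libraries. In all 3 the control libraries lay close together and the Phf8 shRNA libraries above them, replicate 2 more than replicate 1. The log2 fold changes were 0.59 ± 0.12 for Pcdhga11, 0.44 ± 0.09 for Pcdhga12 and 0.32 ± 0.08 for Pcdhga9 (SE; edgeR adjusted p = 6.02e-06, 7.61e-06 and 0.000134). Pcdhga3, Pcdhga4, Pcdhga7 and Pcdhga8 rose by log2 fold changes of 0.20, 0.21, 0.18 and 0.28. Without Phf8 shRNA replicate 2 the call was lost for Pcdhga3 (edgeR adjusted p = 0.0547), Pcdhga4 (0.616), Pcdhga7 (0.262), Pcdhga8 (0.305) and Pcdhga9 (0.201). Pcdhga3 and Pcdhga4 also lost it without control replicate 1 (edgeR adjusted p = 0.0832 and 0.13) or control replicate 2 (0.0502 and 0.183), and Pcdhga7 without control replicate 2 (0.275). Pcdhga1 had 21.05 and 23.8 CPM (910 and 873 reads) in the Phf8 shRNA libraries, against 27.6 and 27.7 CPM (1193 and 1134 reads) in the control libraries. It fell in both Phf8 shRNA libraries (log2 fold change -0.31 ± 0.07 (SE), edgeR adjusted p = 2.7e-05). The A-type member with the most reads, Pcdhga6, had 24.3 and 27.0 CPM (1050 and 990 reads) in the Phf8 shRNA libraries, against 24.8 and 24.9 CPM (1074 and 1018 reads) in the control libraries. Its groups overlapped (log2 fold change 0.04 ± 0.07 (SE), edgeR adjusted p = 0.644).

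Of the 6 gamma B members 3 rose and 3 did not pass, a share of 50% called against 52.1% of all genes. Pcdhgb4 had 22.1 and 25.7 CPM (955 and 945 reads) in the Phf8 shRNA libraries, against 18.7 and 19.8 CPM (811 and 810 reads) in the control libraries. Pcdhgb7 had 7.72 and 9.59 CPM (334 and 352 reads) in the Phf8 shRNA libraries, against 6.52 and 6.55 CPM (282 and 268 reads) in the control libraries. Pcdhgb5, the B-type member with the most reads, had 25.5 and 25.9 CPM (1101 and 950 reads) in the Phf8 shRNA libraries, against 21.8 and 24.3 CPM (944 and 993 reads) in the control libraries. None of the 3 overlapped between the groups, with log2 fold changes of 0.31 ± 0.07 for Pcdhgb4, 0.40 ± 0.10 for Pcdhgb7 and 0.16 ± 0.07 for Pcdhgb5 (SE; edgeR adjusted p = 5.86e-05, 0.00037 and 0.0454). Pcdhgb7 lost its call without Phf8 shRNA replicate 2 (edgeR adjusted p = 0.0823), and Pcdhgb5 without Phf8 shRNA replicate 1 (0.0756), Phf8 shRNA replicate 2 (0.122) or control replicate 1 (0.54). Pcdhgb1, Pcdhgb2 and Pcdhgb6 had values of 0.11, 0.06 and -0.10, and the A-type members Pcdhga2 and Pcdhga5 had -0.15 and -0.06; none of them passed. Over the 17 A and B members tested the fold change was higher later in the cluster (r 0.714, rho 0.679), with the opposite sign to the alpha and beta clusters, and lower at higher levels (r -0.685, rho -0.620); these points share the 4 libraries, and position and level had r -0.491.

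The C-type gamma members differed among themselves. Pcdhgc3, which in mouse promotes dendrite branching and binds AXIN1, stood at 114 and 115 CPM (4947 and 4218 reads) in the Phf8 shRNA libraries, against 128 and 124 CPM (5516 and 5070 reads) in the control libraries. Per kilobase of unshared exon it was the highest of the members with such exon, at 66.0 CPM per kb, or 35.6 when bases covered on the opposite strand are counted in the length. It fell slightly (log2 fold change -0.13 ± 0.06 (SE), edgeR adjusted p = 0.0337), and its share of the gamma reads was 26.0% with Phf8 shRNA against 29.6% with control shRNA. Pcdhgc4, which in mouse is required for the survival of interneurons, had 16.1 and 18.4 CPM (697 and 675 reads) in the Phf8 shRNA libraries, against 12.8 and 12.9 CPM (555 and 528 reads) in the control libraries. Pcdhgc5, an isoform of maturing neurons, had 11.9 and 14.3 CPM (515 and 525 reads) in the Phf8 shRNA libraries, against 10.6 and 10.4 CPM (459 and 425 reads) in the control libraries. Both lay above the controls in each Phf8 shRNA library, with log2 fold changes of 0.42 ± 0.08 for Pcdhgc4 and 0.31 ± 0.09 for Pcdhgc5 (SE; edgeR adjusted p = 8.18e-07 and 0.000895). Pcdhgc5 lost its call without Phf8 shRNA replicate 2 (edgeR adjusted p = 0.128), and Pcdhgc3 without Phf8 shRNA replicate 1 (0.0525), control replicate 1 (0.161) or control replicate 2 (0.0749). Pcdha2, Pcdha12, Pcdhb8, Pcdhb18, Pcdhga1, Pcdhga11, Pcdhga12, Pcdhgb4 and Pcdhgc4 were among the members that passed in every fit with 1 library left out. In the libraries where Pcdhgc4 and Pcdhgc5 were higher, 9 of 10 neuron and 11 of 12 oligodendrocyte lineage markers were called higher as well. Of 12 astrocyte markers 8 were called lower, while of all genes tested 24.8% were called higher and 27.3% lower. The part of these marker shifts in the change of either isoform was not tested.

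**Figure D4:**
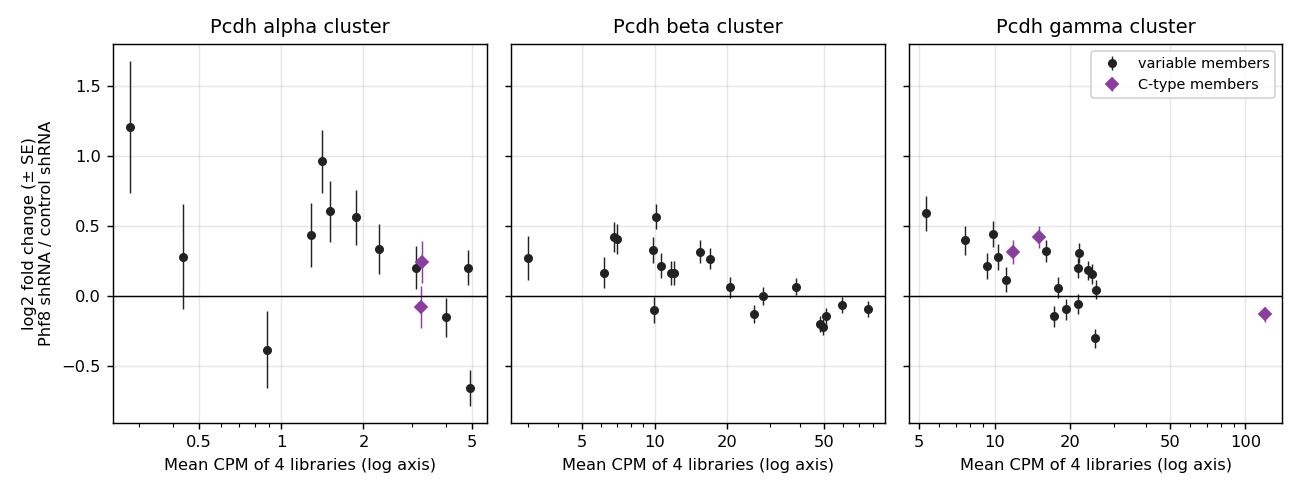
Log2 fold change with its standard error (Phf8 shRNA over control shRNA) against the mean CPM of 4 libraries on a log axis, 1 point per member tested; purple diamonds are C-type members. In the beta cluster the 5 members with the most reads, Pcdhb14 and Pcdhb16 to Pcdhb19, lie below 0, and in the gamma cluster Pcdhgc3 lies below 0 while the members with the next most reads lie on both sides.

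What could be counted differed between members, because the constant exons are shared and other genes overlap the locus. Of 226 genes with at least 300 exonic bases free of other genes on their own strand but none free on both strands, 225 had 0 reads, so the deposited counts behaved as counts made without strand, with reads in overlaps dropped. Pcdhga10 had 0 reads in every library, and its 2613 unshared bases are all covered by a gene on the opposite strand, so its level is not known. Unshared exon on either strand made up 7.0% of the exonic bases of Pcdha4, 16.8% of those of Pcdha11, 26.4% of Pcdhga11, 33.1% of Pcdhgc3 and 36.5% of Pcdhb12, and most other beta members had no overlap. Reads of a member and of transcripts from the other strand outside annotated overlaps cannot be told apart. Of the 43 members tested without any opposite-strand overlap, 18 rose and 3 fell, which is 48.8% called. Of the 12 tested with such an overlap, 5 rose and 3 fell, which is 66.7% called. Of all genes tested 52.1% were called, 24.8% higher and 27.3% lower. The alpha and gamma members that fell, Pcdha12, Pcdhga1 and Pcdhgc3, all have such an overlap. The split by overlap was chosen after the data were seen. Members are also near-identical in stretches, and no source used here says how reads that fit several of them were assigned.

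**Figure D5:**
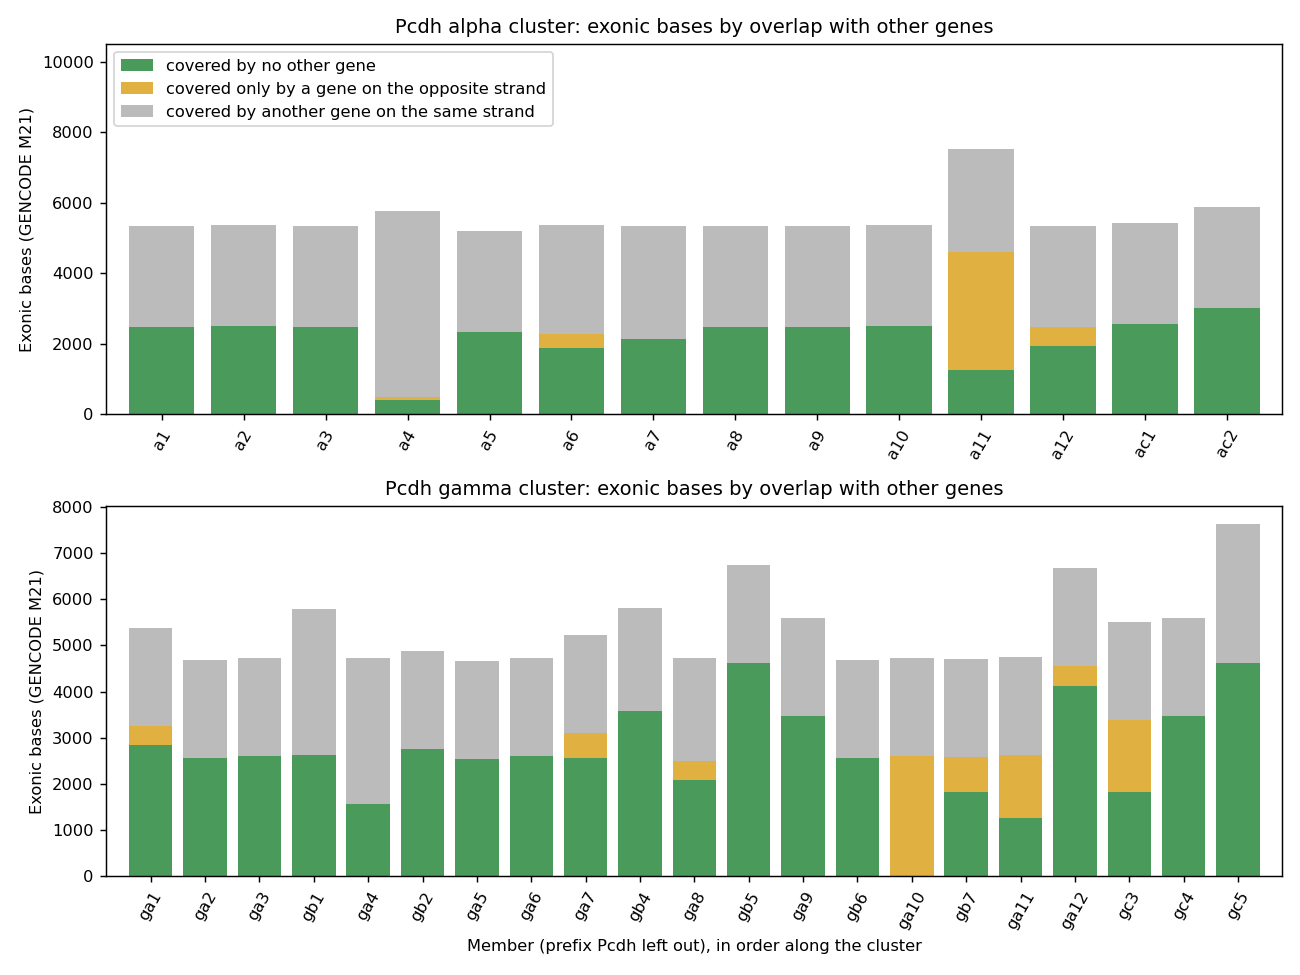
Exonic bases of each alpha and gamma member in GENCODE M21, split into bases covered by no other gene (green), only by a gene on the opposite strand (yellow) and by another gene on the same strand (grey). All unshared bases of Pcdhga10 are yellow, and little of Pcdha4 is green.

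Of 20 genes known to act on protocadherin promoters and enhancers, 8 rose, 3 fell and 9 did not pass (median log2 fold change 0.10). That is 55.0% called, close to the 52.1% of all genes. Tet1, an enzyme that oxidises methylated DNA, had 109 and 107 CPM with Phf8 shRNA, against 46.5 and 46.6 CPM with control shRNA. It was higher in both Phf8 shRNA libraries (log2 fold change 1.21 ± 0.06 (SE), edgeR adjusted p = 1.9e-97). The related Tet2 and Tet3 and the DNA methyltransferase Dnmt3a rose by log2 fold changes of 0.45, 0.27 and 0.27, and the cohesin-associated Pds5b and Mau2 by 0.18 and 0.18. Dnmt1, the maintenance DNA methyltransferase, had 70.3 and 67.5 CPM with Phf8 shRNA, against 92.6 and 89.1 CPM with control shRNA, and fell (log2 fold change -0.40 ± 0.06 (SE), edgeR adjusted p = 7.75e-12). The cohesin subunit Smc1a and the repressor Rest fell by 0.22 and 0.20 on the log2 scale, while Ctcf, which binds the variable promoters, had 86.4 and 83.2 CPM with Phf8 shRNA, against 76.9 and 74.3 CPM with control shRNA, and rose slightly (log2 fold change 0.17 ± 0.06 (SE), edgeR adjusted p = 0.00663). Smchd1, which in mouse holds the clusters silent, had a log2 fold change of 0.03 and did not pass.

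Of 18 tested genes for cytoplasmic partners, proteases and adhesion partners of the proteins, 9 rose, 6 fell and 3 did not pass (median log2 fold change 0.12), which is 83.3% called, against 52.1% of all genes. Among them rose the WAVE complex genes Cyfip2 and Wasf1 (log2 fold changes 1.36 and 0.67), the kinases Ptk2 and Fyn (0.76 and 0.73) and the adhesion gene Nlgn2 (0.46). Adam10, whose protease sheds gamma protocadherins, fell (log2 fold change -0.42 ± 0.06 (SE), edgeR adjusted p = 2.45e-13), as did Pdcd10 (-0.43), Psen2 (-0.34), Nckap1 (-0.23) and Brk1 (-0.22). The WAVE complex genes thus went both ways, since Nckap1, Brk1 and Cyfip1 (-0.13), which also fell, belong to it. Its genes Abi1 and Abi2 did not pass (0.12 and 0.08). Of the 9 protocadherins outside the clusters that were tested, 8 rose and 1 fell, with a median log2 fold change of 0.50. That is 100% called, against 52.1% of all genes, of which 24.8% were higher. Pcdh19, an adhesion gene of the delta group, had 69.1 and 70.7 CPM with Phf8 shRNA, against 30.7 and 27.7 CPM with control shRNA (log2 fold change 1.26 ± 0.06 (SE), edgeR adjusted p = 2.11e-96). Pcdh8 had 3.12 and 3.30 CPM with Phf8 shRNA, against 11.1 and 10.4 CPM with control shRNA (log2 fold change -1.75 ± 0.12 (SE), edgeR adjusted p = 2.32e-50). The others that rose with the smallest adjusted p were Pcdh17, Pcdh1, Pcdh9 and Pcdh18, with log2 fold changes of 0.97, 0.96, 0.50 and 0.83.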

How the data were processed

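RNA-seq counts of 4 mouse astrocyte libraries were used. Per the labels' protocols, total RNA was depleted of ribosomal RNA and made into libraries with a stranded kit. Per the submitters' processing notes, HISAT2, HTSeq, DESeq2 and mm10 were used; no source used here gives versions, the annotation or the strand setting. The deposited files hold whole-number read counts per gene, which the authors did not normalize, judging by totals that differ between libraries. Symbols were taken from GENCODE M21, which held 55154 of the identifiers. CPM were scaled by TMM (factors 0.967 and 0.997 for Phf8 shRNA, 1.02 and 1.01 for control shRNA). Mitochondrial ribosomal RNA took 27.8% and 28.2% of the reads with Phf8 shRNA and 21.2% and 22.5% with control shRNA. Genes were filtered with filterByExpr and tested in edgeR 4.0.16 by quasi-likelihood, two-sided (limma 3.58.1, DESeq2 1.42.0 for alternatives; R 4.3.3), after the step was tested on simulated data. Standard errors of fold changes were derived from the test, as the absolute log2 fold change over the square root of its F statistic. The common biological coefficient of variation was 3.64%. Intervals cover counting error only. Members named in full were the C-type members and the member with the most reads per subfamily. Also named in full were the 3 called members with the smallest adjusted p per subfamily and direction. Of each pathway list up to 5 called genes per direction were named. Mau2, Ctcf, Smchd1, Cyfip1, Abi1, Abi2 and the rest of the called members were added after their values were seen. The members and lists were chosen with earlier results of these data known. Alternatives were other scalings, tools, filters, thresholds and spreads, a replicate block and leaving out each library.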

Additional observations from a re-analysis of the deposited data

How the results depend on the processing

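Called members kept their direction under every alternative run; calls did not all hold. The DESeq2 test called 3177 genes higher, against 5225 in the main test, and kept 15 of 29 member calls, with 1 alpha (Pcdha2), 4 beta and 5 gamma members higher. With a biological coefficient of variation of 0.2, 1262 genes were higher and 2043 lower, and 1 alpha member, Pcdha2, rose, with 0 alpha lower and 0 beta or gamma members in either direction. At 2-fold or more, 1157 genes were higher and 1833 lower, and 1 member passed, Pcdha1 in the alpha cluster, which had to be higher with Phf8 shRNA to be tested at all, with 0 others. At an adjusted p under 0.01, 2 alpha, 6 beta and 8 gamma members rose, and 1 alpha, 2 beta and 1 gamma member fell. Over all genes 4154 were higher and 4967 lower at that threshold. Scaling by library size alone gave 5 lower beta, 7 higher gamma and 3 lower gamma members; upper quartile scaling gave 1 lower beta and 1 lower gamma member. Without members overlapped on the opposite strand (an alternative chosen after seeing the data), 0 alpha and 0 gamma members fell and 7 gamma members rose. Leaving out 1 library gave 1 to 5 alpha members higher, 2 to 5 beta members lower, 4 to 11 gamma members higher and 1 to 2 lower, and 5 to 8 beta members higher. Where calls did not hold, the cause was not tested unless fewer samples or a stricter rule made it. Some members that did not pass changed sign. With upper quartile scaling Pcdhac2 had 0.0019, Pcdhb16 0.0165, Pcdhb20 0.0821 and Pcdhga5 0.0223, and with library size Pcdhga6 had -0.0107. Pcdhb20 had 0.0001 with limma-voom, 0.0106 at 1 CPM or more, 0.0008 with the replicate block and 0.0002 with the set spread. With 1 library left out Pcdha8 lay between -0.0407 and 0.4344, Pcdhac2 between -0.1989 and 0.0386, Pcdhb16 between -0.1551 and 0.0271, Pcdhb20 between -0.0496 and 0.0450, Pcdhgb2 between -0.0316 and 0.1530 and Pcdhga6 between -0.0298 and 0.1198. Replicate numbers are shared between groups, but same-numbered libraries did not deviate together over the genes (correlation -0.001). With 2 libraries per group this cannot tell whether same-numbered libraries came from the same culture, infection or batch. The replicate block left 23 members higher and 6 lower, with 5202 genes higher and 5727 lower. Depth limits the alpha cluster, with 1335 to 1391 reads per library.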

Other observations

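The protocadherin locus holds 29 other annotated rows between the first alpha and the last gamma member, of which 18 had enough reads to be tested; 5 rose, none fell and 13 did not pass, which is 27.8% called, all higher, against 52.1% of all genes called and 24.8% called higher. Taf7, a subunit of the general transcription factor TFIID that lies between the beta and gamma clusters, had 15.4 and 14.3 CPM with Phf8 shRNA, against 12.2 and 11.7 CPM with control shRNA (log2 fold change 0.32 ± 0.08 (SE), edgeR adjusted p = 0.000394). The pseudogene Pcdhgb8 had 10.5 and 12.01 CPM with Phf8 shRNA, against 7.74 and 8.29 CPM with control shRNA, above the controls in both libraries (log2 fold change 0.49 ± 0.09 (SE), edgeR adjusted p = 9.73e-07). Gm37446, an antisense gene whose exons overlap those of Pcdhb12, had 4.02 and 4.30 CPM with Phf8 shRNA, against 2.31 and 2.52 CPM with control shRNA (log2 fold change 0.78 ± 0.15 (SE), edgeR adjusted p = 1.47e-06). The pseudogenes Gm36858 and Gm18529 rose by log2 fold changes of 0.49 and 0.71. Both genes that flank the locus fell: Zmat2, before the alpha cluster, had 44.4 and 44.6 CPM with Phf8 shRNA, against 54.5 and 54.1 CPM with control shRNA (log2 fold change -0.29 ± 0.06 (SE), edgeR adjusted p = 3.31e-06), and Diaph1, a formin gene after the gamma cluster, had 41.0 and 38.9 CPM with Phf8 shRNA, against 64.1 and 62.3 CPM with control shRNA (log2 fold change -0.66 ± 0.06 (SE), edgeR adjusted p = 1.31e-28).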
